A study of Rattus norvegicus with 192 samples.

Results

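The proteasome is the large protease that degrades proteins marked with ubiquitin. Its genes were taken as the probes whose symbol begins with Psma, Psmb, Psmc, Psmd, Psme, Psmf or Psmg followed by a digit, which gave 44 of the 22253 probes measured. These 44 probes stand for 42 gene symbols, since Psme1 and Psme3 have 2 probes each. Of the 44 probes, 40 (39 symbols) had enough counts to be tested, among 11055 tested probes in all. One of the 40, Psmc3ip, carries a matching symbol but encodes a meiotic recombination factor and not a subunit. Some family genes, such as Psma1, Psmb6 and Psmd14, had no matching row and were not analysed here.

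The libraries came from primary hepatocytes of male rats, liver cells kept on collagen and exposed for 24 h. Every group received the solvent DMSO at 0.1%. There were 29 chemicals at 6 doses with 1 library per dose, reaching 100 µM for 16 chemicals and 33.3 µM for 13. The 9 reference chemicals had 1 library each. Oltipraz was used at 30 µM, TCPOBOP and GW 4046 at 1.5 µM, and WY-14,643 and Pregnenolone-16alpha-carbonitrile at 15 µM. Sulforaphane, testosterone, 17beta-estradiol and dexamethasone were used at 10 µM. The solvent group had 9 DMSO libraries on 3 plates. TempO-Seq, the assay, ligates a pair of probes side by side on a transcript and counts the products, so a level is the CPM (the probe's count scaled by the library's total) of 1 probe. Whether the wells were independent cultures is not stated in the labels, and the p-values cover the scatter among these libraries, part of which may be technical.

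Total counts per library ran from 582071 (sulforaphane) to 11249014, with a median of 5745085. DMSO replicate 1 stood apart: 10 of the 40 members lay above and 24 below the range of replicates 2 to 9, beside 19.4% and 57.5% of all tested probes. It was left out of the controls, which were therefore 8 libraries (replicates 2 to 9). Within those, DMSO replicate 5 was the lowest library for 15 members and the highest for 12, beside 40.1% and 23.1% of all tested probes. Hepatocyte markers such as Alb and Apoa1 were abundant in the controls, with a summed level of 28870 to 50100 CPM over 9 genes. The 10 macrophage markers, 9 of them tested, summed to 99.4 to 142 CPM. The endothelial markers summed to 14.2 to 21.5 CPM and the bile duct markers to 15.3 to 29.2 CPM. The leukocyte markers summed to 4.96 to 9.73 CPM and the stellate cell or fibroblast markers to 4.01 to 7.99 CPM. Among their defining genes, Cd79a, Nkg7, Krt7, Krt19, Col1a1 and Des were at or near 0.

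The 20S core is a barrel of alpha and beta rings, and 3 of its beta subunits cut proteins. The 19S regulatory particle holds ubiquitin receptors, a lid that removes ubiquitin, and a ring of ATPases that unfolds the substrate and feeds it into the core. Interferon replaces the cutting subunits with Psmb8, Psmb9 and Psmb10 to form the immunoproteasome, and raises the PA28 activator (Psme1 and Psme2), which favours peptides for antigen presentation. When proteasome activity falls, the transcription factor Nfe2l1 raises subunit genes together through antioxidant response elements, the DNA site that Nfe2l2 (NRF2) also binds.

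RefSeq promoters of assembly GRCr8, 250 bases before to 50 after the start of each gene, were matched for 38 of the 42 symbols and searched on both strands. The core of the interferon-stimulated response element, spelled GAAA, any 2 bases, GAAA, was present in 7 of the 38 promoters (18.4%) against 3.77% of 27457 promoters. Psmb8, Psmb10 and Psme2 among them are immunoproteasome or PA28 genes. Stretches around their sites are shown because all 3 read below the controls in the sulforaphane library and in cyproconazole at 100 µM. So did 63.0% and 39.8% of all tested probes. With sulforaphane 6 of the 7 holders read below, as did 17 of 29 other tested genes, and the holder Psmg4 read above. Psma4, also a holder, was called higher with cyproconazole, and Psmb9 and Psme1, without a match, read below in both libraries. Capitals mark the matches. Psmb8, Psmb10 and Psme2 lie on the minus strand, at chr20:4657001-4657060, chr19:50743290-50743375 and chr15:33052770-33052829.
Psmb8: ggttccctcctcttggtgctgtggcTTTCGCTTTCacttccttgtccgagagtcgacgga
Psmb10: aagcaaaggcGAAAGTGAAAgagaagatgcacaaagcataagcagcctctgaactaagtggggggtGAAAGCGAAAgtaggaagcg
Psme2: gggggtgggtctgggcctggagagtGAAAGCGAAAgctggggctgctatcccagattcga

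The antioxidant response element core, spelled TGACNNNGC, was in 7 of the 38 promoters (18.4%) against 12.2% of all promoters. The holders were Psma3, Psmb2, Psmb5, Psmd1, Psmd3, Psmd9 and Psme4. Of these, 3 are shown because Psma3 and Psmd9 were called in dose trends and all 3 lay above the controls in CPM with oltipraz, an NRF2 activator. So did 28.2% of all tested probes and 13 of the 29 tested genes without the core. With TMM, edgeR's scaling of library totals, Psmb2 did not lie above. Psma3 lies on the plus strand at chr6:95219712-95219771, Psmb2 on the plus strand at chr5:144254965-144255024 and Psmd9 on the minus strand at chr12:39018323-39018390.
Psma3: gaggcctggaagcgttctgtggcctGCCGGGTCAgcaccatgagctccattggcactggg
Psmb2: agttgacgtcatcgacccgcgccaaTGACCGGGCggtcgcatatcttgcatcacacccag
Psmd9: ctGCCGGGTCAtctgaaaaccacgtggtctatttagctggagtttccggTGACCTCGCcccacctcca
A match is a description of the letters and not evidence of binding. The CCAAT box (CCAAT) was in 20 members (52.6%) against 37.7% of all promoters, and the gamma-activated site (TTCNNNGAA) in 4 (10.5%) against 8.68%.

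In the controls the 44 probes summed to 8055 to 9110 CPM, and in the 174 dose libraries to 6918 to 10892 CPM. Among the alpha subunits, Psma3 averaged 1055 ± 124 CPM (SD, n = 8), Psma7 759 ± 93.7 and Psma4 110 ± 10.3. Psmb5, the chymotrypsin-like cutting subunit that proteasome inhibitor drugs block, averaged only 4.25 ± 1.29 CPM, and Psmb7, the trypsin-like one, 100.2 ± 31.1 CPM. A probe's yield depends on its own sequence, so these levels do not rank the transcripts. Psmc6, an ATPase, had at most 0.5 CPM in the 8 controls but 53.5 CPM in DMSO replicate 1. The other probes left untested were Psma8 and Psmb11, which make testis and thymus proteasomes, and the second Psme1 probe. Psma8 had 0 counts in every library.

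Several members were among the steadier probes. The coefficient of variation over the 8 controls was 5.42% for Psmc1 and 6.35% for Psmc4, both ATPases, and 6.13% for Psmd4, a ubiquitin receptor. It was 54.3% for Psmd5 and 39.9% for Psmd10, chaperones that assemble the 19S base, and 39.2% for Psmb10. Among probes with at least 100 CPM, the 23 members had a median of 12.7% and all 1660 probes 14.3%. DMSO replicate 5 set the end of the range for 27 of the 40 members. It was highest for 12 and lowest for 15, beside 23.1% and 40.1% of all tested probes. The plot of levels shows the spread of each probe, with the 8 controls drawn alike.

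**Figure D1:**
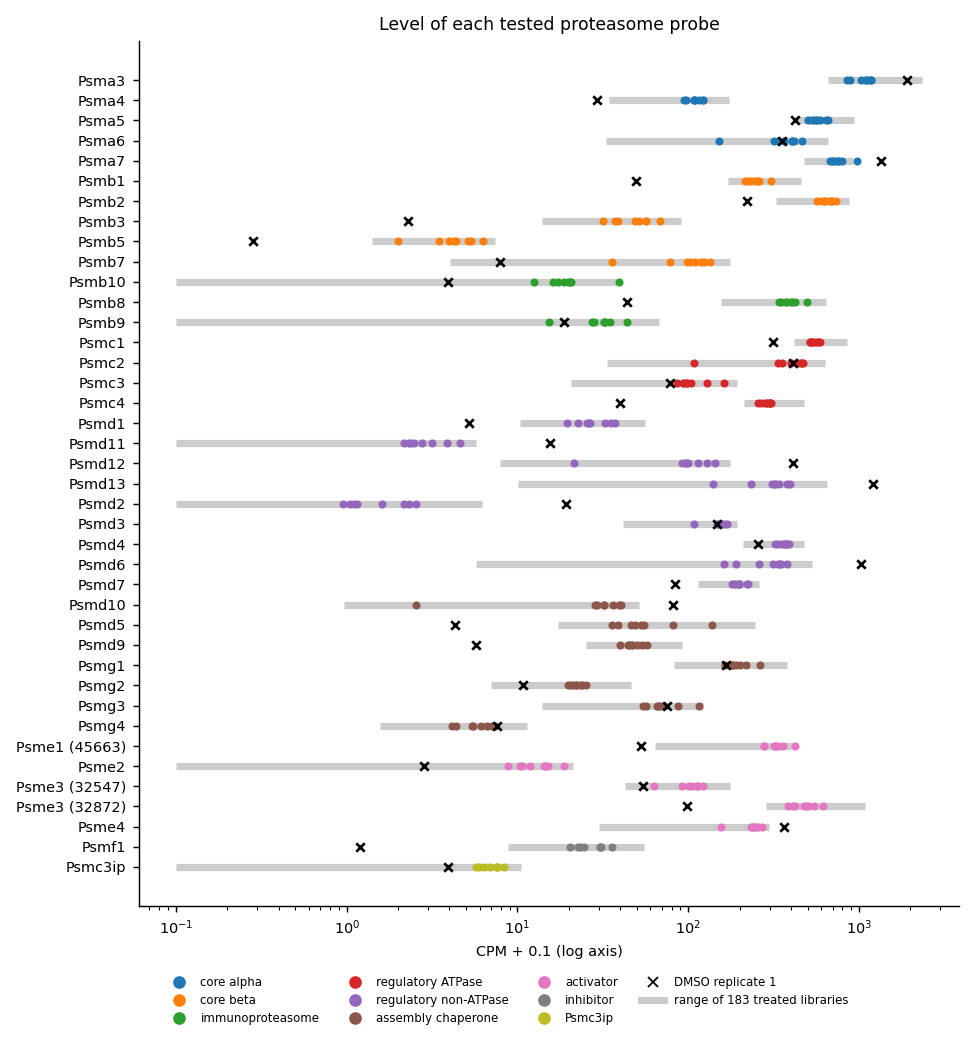
CPM plus 0.1 on a log axis for each of the 40 tested proteasome probes. Coloured points are DMSO replicates 2 to 9, coloured by role, crosses are DMSO replicate 1 and grey bars span the 183 treated libraries. Psmc1 and Psmc4 stayed within narrow bands in the controls, while Psmd10 and Psmd12 had 1 control far below the others, and crosses lay above the control points for 10 probes and below them for 24.

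Which subunits followed dose was tested for each chemical over its 6 libraries and the 8 controls with edgeR's quasi-likelihood F test. Plate was a factor, so a change is set against the DMSO libraries of the chemical's own plate or plates. Those are replicates 2 and 3 on plate 1, 4 to 6 on plate 2 and 7 to 9 on plate 3. The other controls inform the spread alone, while the CPM ranges quoted beside a change span all 8. The change is the fitted log2 change at 33.3 µM, and a call needs a Benjamini-Hochberg adjusted p under 0.05 over the 11055 probes. Only 3 of the 29 chemicals, the herbicide dithiopyr and the azole fungicides imazalil and cyproconazole, had any proteasome probe called. They gave 13 calls towards higher and 1 towards lower, over 13 distinct probes, and 27 probes were called for no chemical. In the other 26 chemicals edgeR called 0 members, while 0 to 3.74% of all tested probes were called and between 0 and 14 members passed without adjustment (p under 0.05). By DESeq2 the count ran from 0 to 5, the 5 being with alachlor, where DESeq2 called 5.24% of all probes and edgeR 0.00905%. Their median member change lay between -0.13 and 0.10. All comparisons draw their spread from the same controls, and chemicals on 1 plate share the controls that set the change.

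**Figure D2:**
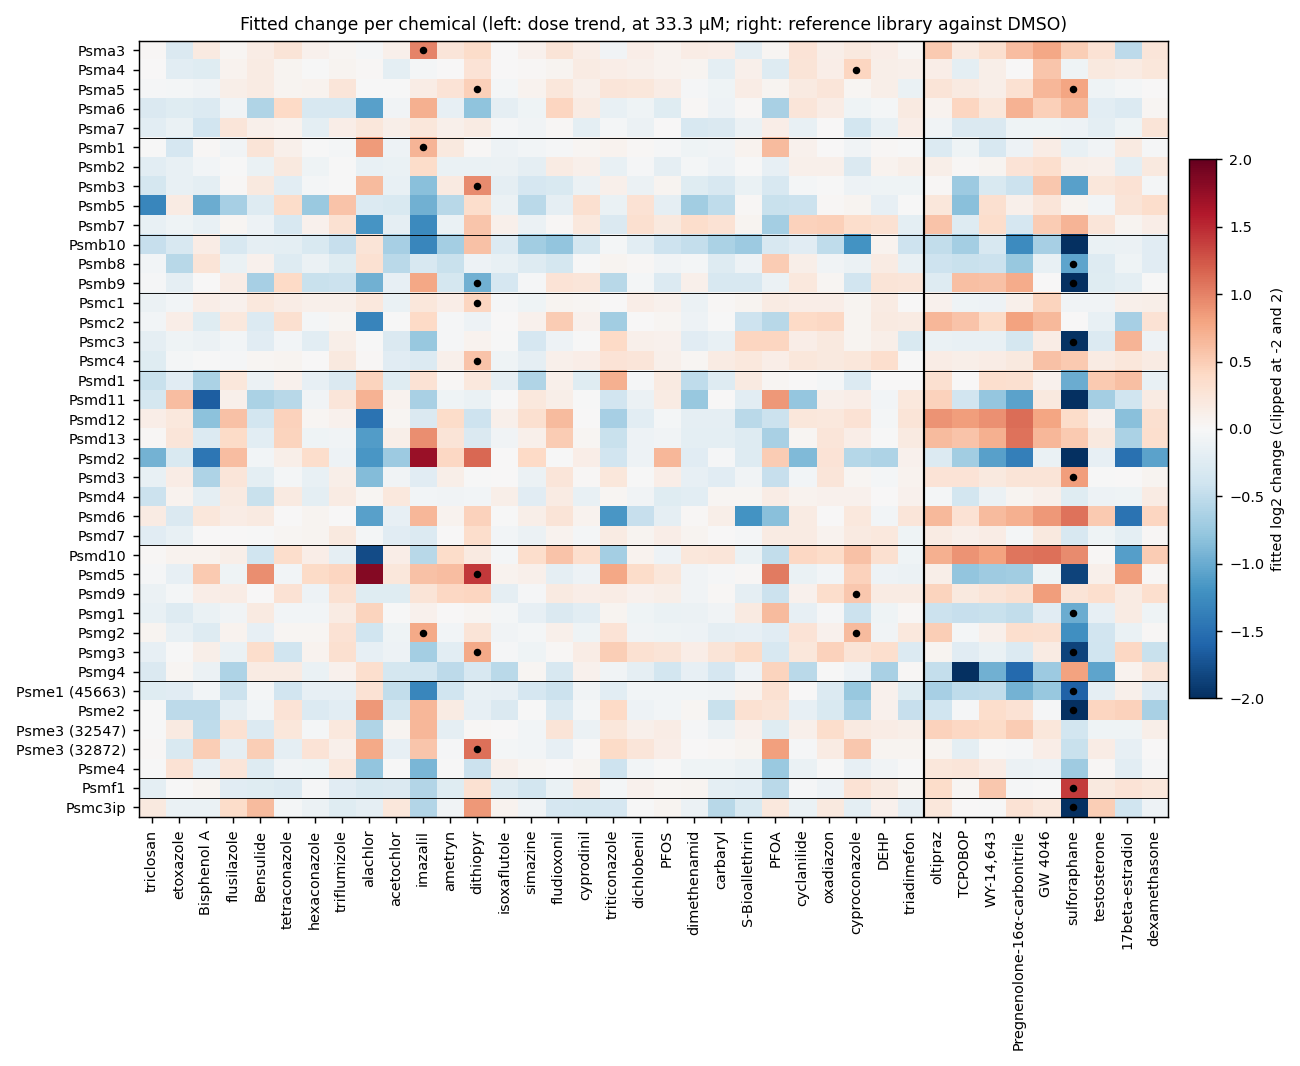
Fitted log2 change of the 40 tested probes (rows, by role) with 29 chemicals (left of the line, dose trend, read at 33.3 µM). At the right are 9 reference chemicals, 1 library each, fitted with 8 DMSO libraries. Plate was a factor, so each change is set against the DMSO libraries of its own plate or plates. Black dots mark an adjusted p under 0.05. Dots fall in 3 dose-trend columns and in the sulforaphane column.

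Dithiopyr raised 7 of 40 members (17.5%) and lowered 1 (2.5%), beside 6.26% and 6.74% of all tested probes. The 7 spread over the complex: core subunits Psma5 and Psmb3, ATPases Psmc1 and Psmc4, assembly chaperones Psmd5 and Psmg3, and the nuclear activator Psme3. The 9 non-ATPase subunits of the 19S particle had 0 calls and a median change of -0.01. Over all 40 members the median change was 0.20, and over all tested probes -0.01.

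Psme3 encodes PA28 gamma, an activator of the core that does not need ubiquitin. Its probe 32872 read 405, 377, 413, 555, 668 and 1010 CPM from the lowest to the highest dose (0.14, 0.4, 1.2, 3.7, 11.1 and 33.3 µM), and 383 to 619 CPM in the controls. The 2 highest doses lay above every control. Its fitted change was 1.11 ± 0.21 (SE; edgeR adjusted p = 0.00312). The gene's other probe, 32547, read 102, 104, 73.6, 96.5, 127 and 106 CPM at the same doses against 62.6 to 122 CPM in the controls, and its change was 0.03 ± 0.23 (edgeR adjusted p = 0.948). The difference between the probes was not tested, and their places on the transcript are not given in the sources used here.

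Psmc4, an ATPase, read 266, 265, 256, 276, 361 and 479 CPM over the rising doses, against 255 to 306 CPM in the controls. It stayed within the control range up to 3.7 µM and left it at the 2 highest doses. Its fitted change was 0.57 ± 0.16 (edgeR adjusted p = 0.0308). Psmc1, a second ATPase, read 504, 478, 482, 565, 675 and 735 CPM, against 515 to 594 CPM in the controls. Its 3 lowest doses lay below every control and its 2 highest above, with a change of 0.43 ± 0.13 (edgeR adjusted p = 0.0449).

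Psma5, an alpha ring subunit, read 542, 478, 497, 637, 716 and 759 CPM (controls 506 to 662 CPM) and changed by 0.48 ± 0.13 (edgeR adjusted p = 0.0292). Psmb3, a structural beta subunit, read 37.2, 31.5, 44.5, 57.7, 63.9 and 86.2 CPM (controls 31.8 to 68.5 CPM) and changed by 0.94 ± 0.26 (edgeR adjusted p = 0.0264). In both genes the highest dose was the highest value. Psmd5 reached 139 CPM at 33.3 µM, next to a control range of 35.9 to 138 CPM whose top was DMSO replicate 5, and changed by 1.42 ± 0.43 (edgeR adjusted p = 0.0423). Psmg3, a chaperone of the core, stayed inside its control range at every dose but 0.4 µM and changed by 0.76 ± 0.23 (edgeR adjusted p = 0.0433).

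The single lower call was Psmb9, an immunoproteasome subunit. It read 32.3, 46.3, 32.1, 27.5, 31.2 and 19.02 CPM over the rising doses, against 15.3 to 43.9 CPM in the controls. All but the value at 0.4 µM lay inside the control range, and the fitted change was -0.97 ± 0.30 (edgeR adjusted p = 0.0446). Psmb8 and Psmb10, the other immunoproteasome subunits tested, had changes of -0.10 and 0.58 and were not called.

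**Figure D3:**
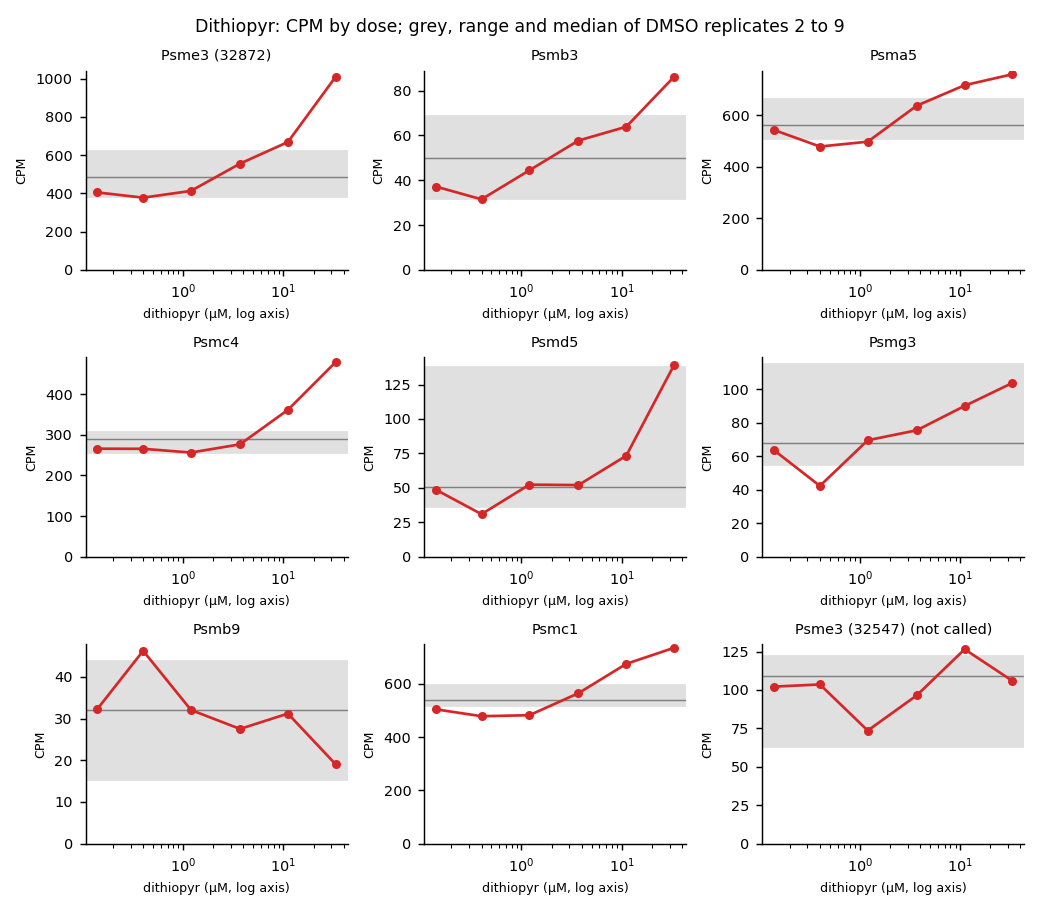
CPM (linear axis from 0) against dithiopyr dose in µM (log axis) for the 8 called probes and the second Psme3 probe, with 1 library per dose. Grey bands span DMSO replicates 2 to 9 and the grey line is their median. Psme3 probe 32872 reached 1010 CPM at 33.3 µM, while probe 32547 ended at 106 CPM within its band.

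Among pathway genes taken from lists, 8 of 12 NRF2 targets rose with dithiopyr, among them Srxn1 (1.95) and Nqo1 (1.51), an enzyme that reduces quinones. Of 8 genes of proteotoxic stress 5 rose: Hspa1a (1.32), Hspa8, Hsf1, Bag3 and Sqstm1 (1.14), which carries ubiquitin cargo to autophagy. Of 9 genes of proteasome transcription control 2 rose, Maff and Mafg, the small partners of Nfe2l1 and Nfe2l2. Nfe2l1 itself had a change of -0.35 ± 0.16 (edgeR adjusted p = 0.172). Of the 5 tested partner genes 0 were called, and Isg15, a ubiquitin-like protein induced by interferon, was the only 1 of 13 antigen processing and interferon genes to change, by -2.65. Hepatocyte markers moved with these results: 6 of 9 fell, and their sum was 14820 CPM at 33.3 µM. Of 9 tested macrophage markers 3 fell, and the sum of all 10 was 72.9 CPM at 33.3 µM. The part of these shifts in the proteasome result was not tested.

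The dithiopyr calls depended on single libraries at both ends of the dose range. The count fell from 8 to 0 without the 33.3 µM library, to 2 without the 0.14 or the 0.4 µM library, to 5 without the 3.7 or the 11.1 µM library, and to 5, 4 and 3 without DMSO replicates 4, 8 and 3. In these fits 0.57% of all probes were called without the 33.3 µM library and 9.47% to 12% in the others. It was 1, Psme3, with DMSO replicate 1 kept or with doses by rank, and Psme3 had an edgeR adjusted p of 0.337 without the highest dose. With library size alone as the scaling, the median of all probes moved by 0.12 and 9 members were called higher and 0 lower.

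Imazalil raised 3 of 40 members (7.5%) and lowered 0, beside 7.68% and 2.87% of all tested probes, so the share was near the background. Psma3, an alpha subunit, read 1166, 1121, 1094, 1208, 1232 and 2342 CPM from 0.14 to 33.3 µM, against 853 to 1176 CPM in the controls. Only the highest dose stood far above the controls, and the value in DMSO replicate 1 was 1922 CPM. The fitted change was 0.995 ± 0.22 (edgeR adjusted p = 0.0174). The other calls were the core chaperone Psmg2 (0.76 ± 0.22, adjusted p = 0.0406), at 37.7 CPM in the top library against 19.6 to 25.02 in the controls, and Psmb1 (0.69 ± 0.21, adjusted p = 0.0494), at 347 CPM against 214 to 306.

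Members moved in both directions in the imazalil library at 33.3 µM, where 12 lay above and 17 below the control range, beside 27.5% and 38.4% of all probes. Psme1 read 64.0 CPM there against 277 to 425 CPM in the controls, its lowest level in any treated library, while the 5 lower doses read 274 to 363 CPM. Psmb10 read 2.42 CPM against 12.5 to 39.3 CPM, and Psmb7 14.1 CPM against 35.8 to 134 CPM. Their trends were not called (edgeR adjusted p = 0.0686, 0.168 and 0.235). Psmb9 went the other way, at 67.7 CPM against 15.3 to 43.9 CPM, its highest level in any treated library, and its trend was not called. With TMM scaling Psme2 also lay above the control range in this library, and Psmb8 lay below it. Hepatocyte markers summed to 15130 CPM in the same library, and macrophage markers to 195 CPM with Cd68 called higher. Among ubiquitin genes Rad23b and Ubqln2, shuttles that bring cargo to the proteasome, rose by 2.66 and 2.34, Rps27a, which encodes ubiquitin fused to a ribosomal protein, rose by 0.81, and the deubiquitinase Uchl5 rose by 1.58. Uba1, the enzyme that activates ubiquitin, fell by 0.94. Of 12 NRF2 targets 3 rose, and Isg15 and Irf7 fell.

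The imazalil calls also rested on single libraries. The count was 0 without the 33.3 µM library, 1 without any of DMSO replicates 2, 4, 6, 7, 8 and 9 or without the 0.4 or the 1.2 µM library, 5 without DMSO replicate 5, and 16 (8 higher, 8 lower) without the 11.1 µM library. In that last fit 15.9% of all probes were called higher and 14.6% lower, and without DMSO replicate 5 15.5% were called in all. In the fits here with 1 member called (2.5%), 3.97% to 9.52% of all probes were called. Without the 33.3 µM library 0.0452% of all probes were called. Psma3 changed by 0.25 (edgeR adjusted p = 1.0) without the highest dose, and by 0.995 (adjusted p = 0.0618) against the controls of its own plate alone.

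Cyproconazole raised 3 of 40 members (7.5%) and lowered 0, beside 5.83% and 3.1% of all tested probes. Psmd9, a chaperone of the 19S base, read 47.9, 50.1, 51.7, 57.1, 66.7 and 82.1 CPM from 0.4 to 100 µM, against 39.7 to 57.2 CPM in the controls. Its level was higher at each step of dose, and the fitted change was 0.53 ± 0.14 (edgeR adjusted p = 0.025). Psma4 read 103, 112, 114, 131, 137 and 167 CPM, against 94.2 to 122 CPM, and changed by 0.43 ± 0.12 (edgeR adjusted p = 0.0389). Psmg2 stood at 46.3 CPM at 100 µM and at 20.8 to 25.2 CPM below it, against 19.6 to 25.02 CPM, and changed by 0.63 ± 0.18 (edgeR adjusted p = 0.0412).

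The cyproconazole library at 100 µM held only 1340300 counts, and its hepatocyte markers summed to 17550 CPM. Endothelial markers summed to 40.3 CPM, stellate cell or fibroblast markers to 17.2 CPM and macrophage markers to 92.5 CPM, each outside the control range. Their part in the result was not tested. In it 10 members lay above and 14 below the control range, beside 28.9% and 39.8% of all probes. There Psme1 read 84.3 CPM, Psme2 4.48 CPM (controls 8.75 to 18.6) and Psmb9 12.7 CPM, each below every control, and Psmb10 had 0 counts. With a floor of 3 counts in that library (2.24 CPM), Psmb10 was at least 9.16-fold lower than the control mean of 20.5 CPM. At 33.3 µM the same genes read 348, 9.28, 27.6 and 16.1 CPM, inside the control ranges. Srxn1, Akr1b8, Hmox1 and Slc7a11 (4 of 12 NRF2 targets), Hspa1a (2.16) and Maff (3.19) rose, and Irf1, an activator of immunoproteasome genes, fell by 0.96. The member count was 0 without the 100 µM library (0.715% of all probes called) and 0 without DMSO replicate 6 (6.31%). It was 1 without any of DMSO replicates 2, 3, 7 and 8 or the 0.4, 1.2 or 3.7 µM library (6.34% to 7.29%). It was 5 without DMSO replicate 5 (13.2%) and 6 without the 33.3 µM library (17.1%).

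Sulforaphane, an isothiocyanate that activates NRF2 and the heat shock response, was the only one of the 9 reference chemicals with members called. It raised 3 of 40 members (7.5%) and lowered 8 (20%), beside 9.93% and 18.5% of all tested probes. This is a single library and the shallowest of the study, and its spread is assumed to equal that of the controls. It is on plate 2, so its fitted changes are set against DMSO replicates 4 to 6, which include the outlying replicate 5. After TMM scaling the median change of all probes was -1.07, and that of the 40 members -0.19. With genes at 0 counts set to their bound, the member median was -0.13 over 38 members. Members whose control mean lay under that bound were left out of it. No bound was set for all probes, so the medians of members and of all probes are not compared on like terms at this depth.

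In CPM 5 members lay above and 25 below the control range, beside 15.9% and 63.0% of all probes, and with TMM scaling 9 above and 19 below, beside 22.8% and 56.8%. The immunoproteasome and PA28 genes were among the low ones, in a library where the median fitted change of all tested probes was -1.07. The change of Psmb8 was near that median. Psme1 read 89.3 CPM (52 counts), against 277 to 425 CPM in the controls, and changed by -1.62 ± 0.28 (edgeR adjusted p = 0.00291). Psmb8 read 155 CPM (90 counts) against 339 to 498 CPM, and changed by -1.05 ± 0.27 (edgeR adjusted p = 0.0169). Psmb9 and Psme2 had 0 counts. At a floor of 3 counts (5.15 CPM), Psmb9 was at least 5.95-fold lower than its control mean of 30.7 CPM and Psme2 at least 2.51-fold lower than 12.9 CPM. Psmb10 read 1.72 CPM against 12.5 to 39.3 CPM and was not called. Of 13 antigen processing and interferon genes 5 also fell (Nlrc5, Isg15, Gbp2, Irf7 and Erap1), and Cxcl10 rose. Of 9 tested macrophage markers 2 fell (Marco and Clec4f) and 1 rose (Cd68). The sum of all 10 macrophage markers was 96.2 CPM against 99.4 to 142 CPM in the controls. Bile duct markers summed to 127 CPM (controls 15.3 to 29.2), stellate cell or fibroblast markers to 41.2 CPM (4.01 to 7.99) and leukocyte markers to 13.7 CPM (4.96 to 9.73), while endothelial markers, at 20.6 CPM, stayed within their range. The part of these cells in the result was not tested.

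Outside that group, Psmc3, an ATPase, read 20.6 CPM (12 counts) against 86.1 to 163 CPM and changed by -1.98 ± 0.47 (edgeR adjusted p = 0.0116). Psmg3 (-1.85), Psmg1 (-0.98) and Psmc3ip completed the lower calls. Psmc3ip had 0 counts, which bounds it at only 1.34-fold lower or more. The Psmg1 call was lost in 11 of 17 alternatives and the Psmc3ip call in 6 of 16. Psmf1, which encodes the proteasome inhibitor PI31, read 55.0 CPM (32 counts) against 20.3 to 35.5 CPM, its highest level in any treated library, and changed by 1.39 ± 0.28 (edgeR adjusted p = 0.00529). Psma5 read 720 CPM against 506 to 662 CPM (0.80 ± 0.16, adjusted p = 0.00529), and Psmd3, a lid subunit, 184 CPM against 108 to 168 CPM (0.83 ± 0.21, adjusted p = 0.0147). With library size alone as the scaling, the median of all probes moved by -0.41 and 1 member was called higher and 15 lower; Psma5 and Psmd3 then lost their calls. Hspa1a rose by 4.57, Dnajb1 by 4.81, Hmox1 by 3.51 and Zfand2a by 4.43, and 7 of 12 NRF2 targets rose.

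In the other 8 reference libraries edgeR called 0 members, beside 0 to 1.5% of all tested probes. Between 0 and 8 members per library passed without adjustment (p under 0.05), and DESeq2 called at most 1. Oltipraz raised 7 of 12 NRF2 targets, such as Nqo1 (2.56) and Srxn1 (2.52), but 0 members, beside 1.28% of all probes called. GW 4046, for which the labels give no target, had the highest median member change of the 9 at 0.21, with 0 members called beside 0.95% of all probes. Like oltipraz it is on plate 2, so the fitted changes of both are set against DMSO replicates 4 to 6. GW 4046 gave Psma5 935 CPM, Psmc1 852 CPM and Psmb2 872 CPM, the highest of any treated library for these genes. None of these passed the test, which rests on 1 library.

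Library by library, members were counted as outside when their CPM lay above the highest or below the lowest of the 8 controls, with no test. The median dose library had 8 of 40 members outside (20%) and 20.3% of all tested probes, so members left the control range about as often as probes in general. With oltipraz 21 members lay above (52.5%) and 1 below (2.5%), beside 28.2% and 13.5% of all probes. With GW 4046 the counts were 19 (47.5%) and 1 (2.5%), beside 23.8% and 16.9%. CPM divides by the library total alone. With TMM scaling the counts were 15 above and 3 below with oltipraz (19.3% and 19.1% of all probes) and 16 above and 2 below with GW 4046 (18% and 21.6%). Psma3 read 1599 CPM with oltipraz and 1819 CPM with GW 4046, against at most 1176 CPM in the controls, and Psmd9 73.4 and 91.5 CPM against at most 57.2. Psme1 was the single member below in both libraries, at 258 and 231 CPM. Of the 7 promoters with the antioxidant response element core printed above, 6 belonged to genes above the range with oltipraz (13 of the 29 others), 4 with GW 4046 (14 of the 29), 3 with dithiopyr at 33.3 µM (13 of the 29) and 1 with sulforaphane (3 of the 29). With TMM scaling these were 4 (10 of the 29), 4 (11), 3 (11) and 2 (6).

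More members above than below were also found in other libraries. Over the 9 reference libraries the medians were 10 members above and 4 below. The median shares outside were 37.5% of members and 31.9% of all probes. Among dose libraries, 3 top-dose ones are given as examples. Dithiopyr at 33.3 µM had 17 members above and 3 below, beside 26.9% and 22.9% of all probes. Fludioxonil at 100 µM had 17 above and 5 below (23.9% and 22.2%), and oxadiazon at 100 µM had 16 above and 1 below (21.4% and 17.5%). With TMM scaling the counts were 15 above and 5 below for dithiopyr, 17 and 5 for fludioxonil, and 9 and 1 for oxadiazon, beside 21.3%, 22.7% and 17.7% of all probes above. The 5 low members with fludioxonil were Psmb8, Psmb10, Psme1, Psmg1 and Psmc3ip, of which 3 are immunoproteasome or PA28 genes.

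**Figure D4:**
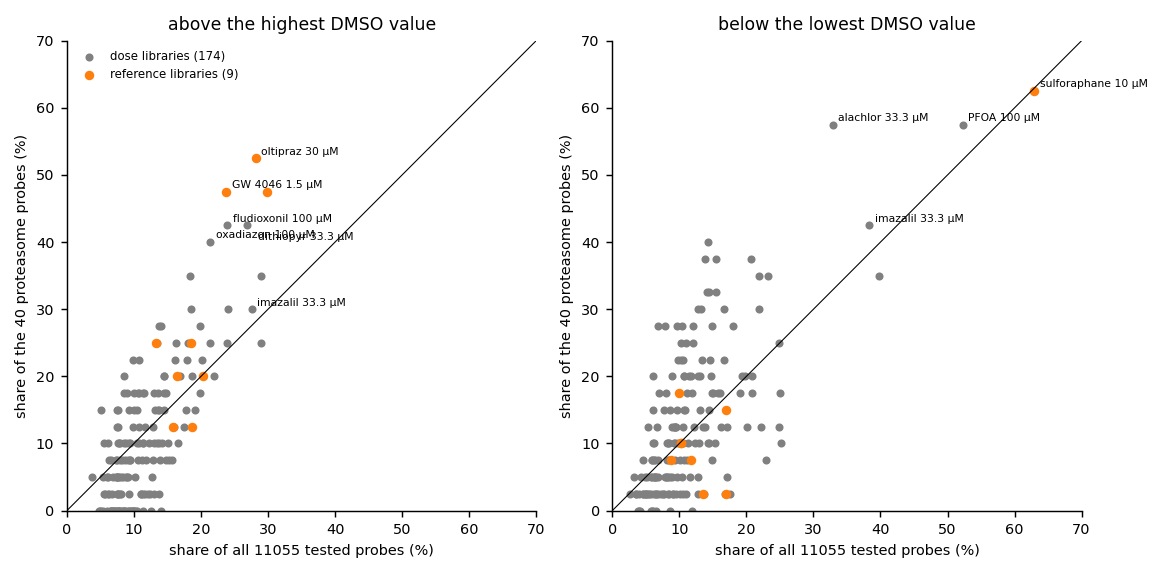
Share of the 40 proteasome probes (vertical axis, percent) against the share of all 11055 tested probes (horizontal axis, percent) lying above (left) or below (right) the range of DMSO replicates 2 to 9, 1 point per treated library. The line marks equal shares. Oltipraz and GW 4046 lie above the line on the left at 52.5% and 47.5%, and alachlor at 33.3 µM lies above it on the right at 57.5%.

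Some large member differences in single libraries went along with a difference that the controls also showed. A library score was computed from 5499 non-proteasome probes as the position between the mean of DMSO replicates 4 and 6 (0) and DMSO replicate 5 (1.0), all on plate 2. PFOA at 100 µM scored 1.74 (2304919 counts), alachlor at 33.3 µM 1.17, triticonazole at 1.2 µM 1.09 and ametryn at 3.7 µM 0.97. The members named next were chosen after their values were seen.

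Psmd12, a lid subunit, read 92.2 to 143 CPM in the 7 controls other than DMSO replicate 5 and 21.2 CPM in that replicate. It read 7.81 CPM with PFOA, 17.2 with alachlor, 21.6 with triticonazole and 23.0 with ametryn. Psmd10, also called gankyrin, read 28.4 to 40.5 CPM in the 7 controls, 2.43 in DMSO replicate 5 and 0.87, 0.95, 1.27 and 2.11 CPM in the 4 treated libraries. Psmd5 went the other way, from 35.9 to 81.6 CPM in the 7 controls to 138 in DMSO replicate 5 and 245, 190, 191 and 170 CPM in the 4 libraries. Psme3 probe 32872 read 1083 CPM with PFOA and probe 32547 42.5 CPM, a ratio of 25.5 against 3.40 to 9.89 in the controls. Triticonazole at 1.2 µM and ametryn at 3.7 µM are not top doses.

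PFOA at 100 µM had 8 members above and 23 below the control range, beside 21.9% and 52.3% of all probes. Lid subunits Psmd6 and Psmd13 read 5.64 and 9.98 CPM there, against at least 161 and 140 CPM in the controls. Alachlor at 33.3 µM had 4 above and 23 below (57.5%), beside 16.5% and 32.9%. With TMM scaling the counts were 15 above and 19 below with PFOA, 8 above and 17 below with alachlor, and 17 above and 15 below with imazalil at 33.3 µM. The shares of all probes above and below were then 30.8% and 42.7%, 25.2% and 25.4%, and 33.2% and 34.0%. Neither chemical had a member called in edgeR's dose trend. With the score as a covariate in edgeR PFOA had 4 members called, all lower, beside 9.89% of all probes, and alachlor 0. Imazalil at 33.3 µM scored -0.56, close to DMSO replicate 1 at -0.57, at the opposite end of the axis. Psma3 kept its imazalil call with the score as a covariate (0.80, edgeR adjusted p = 0.0343), as did Psme3 with dithiopyr (0.90, adjusted p = 0.000554).

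**Figure D5:**
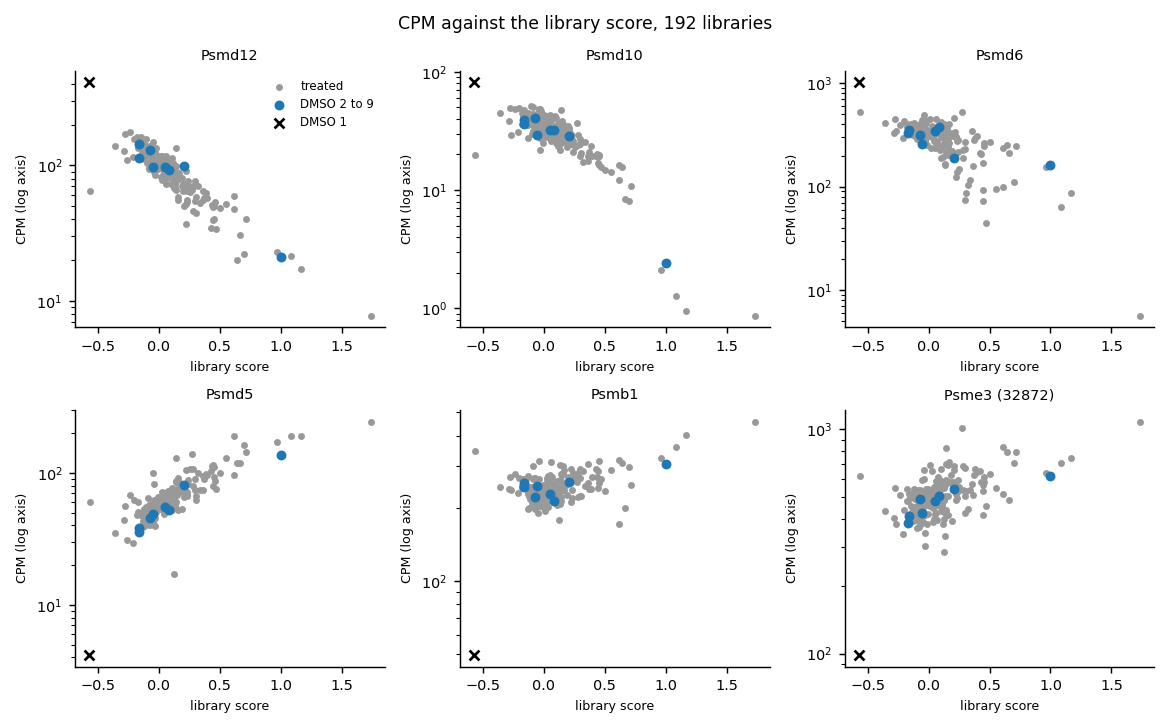
CPM (log axis) of 6 proteasome probes against the library score, for 183 treated libraries (grey), DMSO replicates 2 to 9 (blue) and DMSO replicate 1 (cross). The score is 1.0 for DMSO replicate 5 and 1.74 for PFOA at 100 µM. Psmd12 and Psmd10 are lowest in the high-scoring libraries and Psmd5 is highest there.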

How the data were processed

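The authors deposited raw whole-number counts for each probe, judging by the values. The submitters' processing notes name Bowtie, and its version, the genome build and probe sequences are not given in the sources used here. Groups, doses and plates came from the labels. The members and gene lists were chosen with earlier results of these data known, and so was the choice to leave out DMSO replicate 1. CPM is counts over the library total. A probe was tested where 6 or more libraries reached 1.741 CPM, which is 10 counts in a library of median depth. edgeR 4.0.16 (R 4.3.3) was used with TMM scaling, plate as a factor, its quasi-likelihood F test and Benjamini-Hochberg adjustment over 11055 probes. The tested term was log2(1 + dose in µM), or an indicator for a reference library. Ligation products are amplified before counting, so floors and small counts cover counting error only, and counts from 582071 to 11249014 per library set the precision.

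Every member could be named. Values by library went to called members (up to 6 per comparison and direction, smallest adjusted p first) and a panel of subunits, and other exceptions are named as such. Up to 4 genes per list, plus a few regulators such as Nfe2l1 and Nqo1, could be named, and further list genes are named to complete a count. Alternatives were DESeq2 1.42.0, its size factors, library size alone, no filter, no plate term, doses by rank, a library score as a covariate (5499 probes), DMSO replicate 1 kept and each library left out. Controls of the chemical's own plate alone, and for sulforaphane probes with 10 counts expected at its depth, and TMM scaling for the single libraries' counts outside the control range and the motif counts, were added after the data were seen. The fits were tested on simulated data. Promoters are from RefSeq, assembly GRCr8.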

Additional observations from a re-analysis of the deposited data

Results flagged for a closer look

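DMSO replicate 5 lay far from the other 7 control libraries for 8 members, by a gap that chance exceeds in about 1 in 20 groups of values. The share of all tested probes with such a gap is not given here. This library was the highest control for 23.1% of all tested probes and the lowest for 40.1%. It was the highest control for Psma7 at 969.5 CPM, for Psmb10 at 39.28 CPM and for Psmd5 at 138 CPM. It was the lowest control for Psmc2 at 107.4 CPM, Psmd3 at 107.8 CPM, Psmd10 at 2.433 CPM, Psmd12 at 21.2 CPM and Psme4, the PA200 activator, at 155 CPM. Psmd10 read at least 28.4 CPM in the other controls. The library held 2876741 counts, the fewest of the 8.

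DMSO replicate 1, which was no control in the comparisons above, read more than 2 times the highest of the other controls for 7 members. These were Psmc6 at 53.45 CPM, Psmd2 at 19.09 CPM, Psmd10 at 81.63 CPM, Psmd11 at 15.45 CPM, Psmd12 at 409.8 CPM, Psmd13 at 1203 CPM and Psmd6 at 1023 CPM. The share of all probes more than 2 times above the controls is not given here, so the 7 cannot be read as particular to the members. In this library 10 of the 40 tested members lay above the control range and 24 below. The shares of all tested probes were 19.4% and 57.5%. Psmc6, an ATPase, was near 0 in every other library, with at most 1.90 CPM in a treated library (dithiopyr at 33.3 µM).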

How the results depend on the processing

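No paired analysis was possible because only DMSO libraries carry replicate numbers. No call changed sign in any alternative. Counts of members called, of 40 tested (43 without a filter), changed as follows, with the share of all probes called in the same fit in parentheses. Ranges over single libraries left out carry no share here, so they cannot be read as particular to the members. For dithiopyr the 8 became 1 (2.83%) with DMSO replicate 1 kept, 4 (8.02%) without a filter, 4 (11.1%) without a plate term, 1 (3.49%) by dose rank, 0 (0.57%) without the highest dose, and 2 to 10 leaving out single libraries. For imazalil the 3 became 0 (0.452%) with replicate 1 kept, 1 (7.15%) by library size alone, 5 (17.3%) by DESeq2, 1 (6.42%) without a filter, 8 (18.5%) without a plate term, 0 (0%) by rank, 0 (0.0452%) without the highest dose, 0 (0.0181%) with controls of its own plate alone, and 1 to 16 leaving out single libraries. For cyproconazole the 3 became 0 (1.02%) with replicate 1 kept, 6 (15.5%) by DESeq2, 0 (5.33%) without a filter, 6 (16.4%) with the score, 0 (2.56%) by rank, 0 (0.715%) without the highest dose, 0 (1.32%) with its own plate's controls, and 0 to 6 leaving out single libraries. For sulforaphane the 11 became 3 (12%) with replicate 1 kept, 18 (37.4%) with the score, 5 (15.3%) with its own plate's controls, and 10 to 15 leaving out single libraries. The following had 0 members called in the comparisons above. DESeq2 called 5 (5.24%) with alachlor, 2 (8.73%) with triticonazole, 1 (5.91%) with S-Bioallethrin, 1 (4.39%) with oxadiazon, 1 (1.35%) with DEHP, 1 (5.01%) with Pregnenolone-16alpha-carbonitrile and 1 (2.45%) with GW 4046. Without a plate term there were 7 (17.8%) with triticonazole, 2 (12.8%) with PFOA, 1 (0.317%) with alachlor, 1 (8.35%) with S-Bioallethrin and 1 (1.62%) with GW 4046. With the score there were 9 (8.73%) with GW 4046, 7 (12.2%) with triticonazole, 4 (9.89%) with PFOA, 2 (9.36%) with ametryn, 2 (11%) with S-Bioallethrin, 2 (9.25%) with oltipraz, 1 (5.49%) with simazine, 1 (1.4%) with dichlobenil, 1 (7.87%) with oxadiazon, 1 (3.67%) with DEHP, 1 (6.92%) with Pregnenolone-16alpha-carbonitrile and 1 (1.93%) with 17beta-estradiol. Without a filter there were 1 (2.34%) with triticonazole and 2 (3.47%) with Pregnenolone-16alpha-carbonitrile, by rank 1 (5.5%) with triticonazole, and without the highest dose 4 (10.6%) with Bisphenol A and 1 (2.72%) with S-Bioallethrin. Leaving out single libraries gave 0 to 8 with alachlor, where the count was 8 (11.2%) without 11.1 µM and 5 (9.34%) without DMSO replicate 5. It gave 0 to 3 with triticonazole, 3 (11%) without 1.2 µM, and 0 to 2 with PFOA, 1 (7.57%) without 33.3 µM. Without DMSO replicate 5 there were also 3 (2.86%) with GW 4046, 2 (9.37%) with S-Bioallethrin, 2 (7.36%) with PFOA and 1 (4.67%) with Pregnenolone-16alpha-carbonitrile, the highest of 0 to 3, 0 to 2, 0 to 2 and 0 to 1. The median number of members outside the control range (8) was 4 with replicate 1 kept and 8 to 15 leaving out single controls, with 15 without DMSO replicate 5. The shares of all tested probes under these control sets are not given here, so this change cannot be read as particular to the members. The causes were not tested. With 1 library per dose and 582071 counts in the sulforaphane library, low probes such as Psmd2 and Psmd11 could not be read there.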
